A study of Rattus norvegicus with 28 samples.

Results

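Expression of 9 genes of the Notch pathway (Dll1, Jag1, Notch1, Notch2, Notch3, Rbpj, Hes1, Hes5 and Hey1) was examined in the hippocampus of injured and antidepressant-treated rats. The set was chosen by the level of Hes1, which was higher after Zoloft than after injury alone on these same arrays, and the other 8 genes were added for their place in the pathway. The 9 genes were read by 11 probes and are 9 of the 15637 named genes on the array. All animals were adult male Sprague-Dawley rats, and RNA came from the whole hippocampus 24 h after surgery. Sham rats (Sham, n = 2) had sham surgery without injury. The other 4 groups of 3 rats each had severe fluid-percussion traumatic brain injury (TBI), a pressure pulse delivered to the brain surface. They received no antidepressant (TBI), or imipramine, a tricyclic antidepressant (TBI+Imipramine), Prozac, which is fluoxetine (TBI+Prozac), or Zoloft, which is sertraline (TBI+Zoloft), 1 h after injury. Prozac and Zoloft are both selective serotonin reuptake inhibitors. Each rat gave 1 single-colour Agilent array.

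Notch signalling passes between touching cells. A ligand of the Delta or Jagged family on one cell binds a Notch receptor on its neighbour, ADAM proteases and gamma-secretase cut the receptor, and the freed intracellular part enters the nucleus, where it joins the DNA-binding protein RBPJ and switches on Hes and Hey genes. These encode basic helix-loop-helix repressors that hold back neuronal differentiation, and in the hippocampus the pathway is known for keeping neural stem cells of the dentate gyrus undifferentiated and for its activity in astrocytes.

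The promoters of Hes1 and Hes5, whose transcripts differed most between groups, are shown for the sequence that RBPJ reads. They are the 250 bases before the RefSeq gene start in rat assembly GRCr8, written 5′ to 3′ on the gene's strand, and capitals mark the core TGGGAA or its reverse complement TTCCCA. Hes1 lies on the minus strand and its window is chr11:84213046-84213295. Hes5 lies on the plus strand and its window is chr5:170804327-170804576.
Hes1: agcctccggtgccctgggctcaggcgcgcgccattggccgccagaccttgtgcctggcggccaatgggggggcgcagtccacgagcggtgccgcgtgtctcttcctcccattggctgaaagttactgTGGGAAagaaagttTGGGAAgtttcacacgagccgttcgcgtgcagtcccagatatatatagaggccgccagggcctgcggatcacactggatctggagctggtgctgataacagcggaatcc
Hes5: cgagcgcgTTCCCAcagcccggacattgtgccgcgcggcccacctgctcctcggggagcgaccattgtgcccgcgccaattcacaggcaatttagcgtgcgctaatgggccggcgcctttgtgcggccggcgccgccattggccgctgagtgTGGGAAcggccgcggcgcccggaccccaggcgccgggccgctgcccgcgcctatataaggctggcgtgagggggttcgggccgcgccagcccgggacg
The Hes1 window held 2 matches, both on the gene's strand, beginning 123 and 109 bases before the start. The Hes5 window held 1 match on each strand, beginning 242 and 98 bases before the start. Of the 9 genes, 8 had a promoter in the RefSeq table and 4 of these held a match (Dll1, Hes1, Hes5 and Rbpj), while 22.1% of all 33469 promoter windows of that length did. A match describes these letters only.

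Levels are log2 values scaled so that 0 is the 75th percentile of an array's own detected probes (those above background), so that most of these genes have negative values. Levels of different genes come from different probes and cannot be ranked against each other. Between 14676 and 18196 of 30367 probes were above background per array. The arrays lay on 3 slides. The 3 TBI arrays shared slide 1 with Prozac replicate 1, the other 8 drug arrays were on slide 2, and both Sham arrays were alone on slide 3, scanned on another day, so that slide and group cannot be told apart in any comparison with Sham. No imipramine or Zoloft array shared a slide with TBI, and only the Prozac arrays link slides 1 and 2. Differences were tested with limma across 17322 probes, with Benjamini-Hochberg adjustment and a threshold of 0.05. The labels name 1 rat per array, and p-values measure the spread between these rats. Of the neuronal markers, Neurod6, a gene of excitatory forebrain neurons, Snap25 and Gad1 were above background on all 14 arrays, and Syt1 on all but TBI replicate 1. The probe of Prox1, a marker of dentate granule cells, was above background on none, Sham included, and so gives no reading of those cells. In whole tissue, fewer cells of a type and less RNA per cell cannot be told apart.

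**Figure D1:**
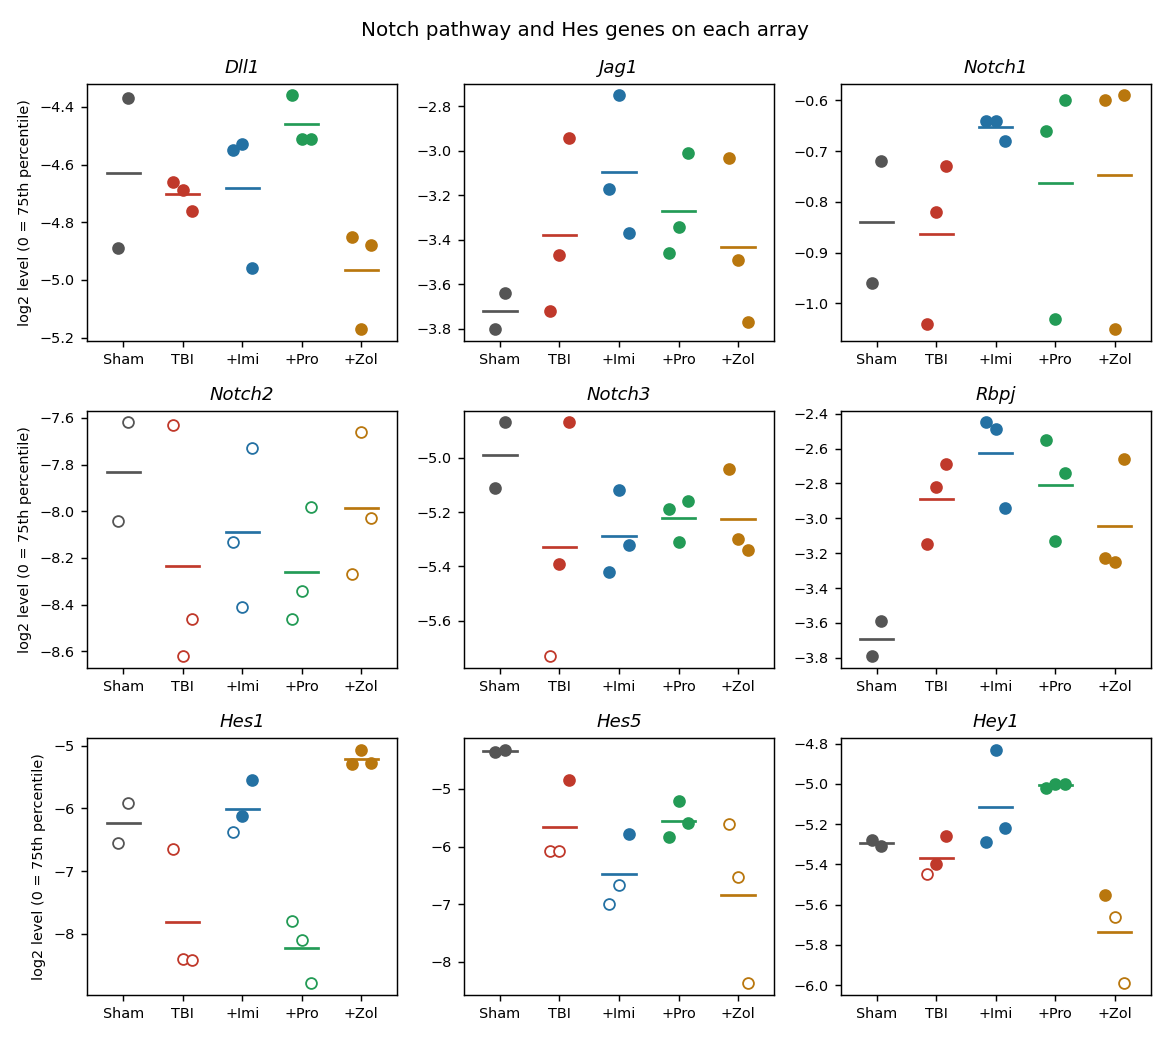
Log2 level (y axis, 0 = the array's 75th percentile; each panel has its own scale) of the 9 genes on each array, by group (x axis; +Imi, +Pro and +Zol are the injured rats given imipramine, Prozac or Zoloft). Points are arrays, filled where the probe was above background and open where it was not, and bars are group means; Hes1 is filled on 5 arrays, 3 of them TBI+Zoloft, and Notch2 on none.

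Neither ligand passed the test in any comparison. Dll1, a Delta-type ligand, was above background on all 14 arrays and lay between -5.17 on Zoloft replicate 2 and -4.36 on Prozac replicate 1. The 3 TBI+Zoloft arrays (-4.85, -5.17 and -4.88) lay below the 3 TBI arrays (-4.66, -4.69 and -4.76), a fitted difference of -0.26 (SE 0.16) that is given without a test. Jag1, a Jagged-type ligand, was also above background on every array. It measured -3.80 and -3.64 in Sham and -3.17, -2.75 and -3.37 after imipramine, with no overlap, but the difference of 0.63 (SE 0.27) did not pass (limma adjusted p = 0.11).

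Among the receptors, Notch1 was the one with a bright probe. It lay between -1.05 and -0.59 on all 14 arrays, and its differences from Sham and from TBI ran from -0.02 to 0.21. None passed the test, the lowest limma adjusted p being 0.47. A second Notch1 probe was above background on no array, so that the 2 probes of this gene did not read the same signal. Notch3, a receptor best known in the smooth muscle cells and pericytes of vessels, was above background on all arrays but TBI replicate 1. It measured -5.11 and -4.87 in Sham and between -5.73 and -4.87 in the injured groups, and passed in no comparison in this fit. Against Sham, imipramine passed with quantile normalization (-0.61, limma adjusted p = 0.0062), the percentile over all probes (-0.54, 0.023) and series-table values (-0.55, 0.023). Prozac passed with quantile normalization (-0.44, limma adjusted p = 0.039), and TBI without TBI replicate 3 (-0.57, limma adjusted p = 0.047). Notch2 was above background on 0 of 14 arrays and no fold is given for it.

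Rbpj, the DNA-binding protein through which all Notch receptors act, was higher after injury. Its brighter probe measured -3.79 and -3.59 in Sham and -3.15, -2.82 and -2.69 in TBI, so that every TBI array lay above both Sham arrays. The difference was 0.80 (SE 0.24), or 1.75-fold (limma adjusted p = 0.038). After imipramine the levels were -2.45, -2.49 and -2.94, and the difference from Sham was 1.06 (SE 0.24, limma adjusted p = 0.0079). After Prozac they were -2.55, -3.13 and -2.74, with a difference of 0.89 (SE 0.24, limma adjusted p = 0.028). After Zoloft they were -3.23, -3.25 and -2.66, also above both Sham arrays, but the difference of 0.64 (SE 0.24) did not pass (limma adjusted p = 0.13). These 4 comparisons share the same 2 Sham arrays. The rise after TBI alone rested on few arrays: leaving out Sham replicate 1, Sham replicate 2, TBI replicate 2 or TBI replicate 3 gave differences of 0.70, 0.91, 0.77 and 0.71 with limma adjusted p of 0.19, 0.11, 0.097 and 0.089. It was also lost with normexp (0.53, limma adjusted p = 0.061), with no filter on dim probes (0.086), with only the groups compared (0.067) and with the replicate block (0.081). The call after Prozac was lost without either Sham array or without Prozac replicate 1 or 3 (0.17, 0.088, 0.098 and 0.076), and that after imipramine without Sham replicate 1 (0.067). A second, dimmer Rbpj probe, above background on 9 arrays, gave differences from Sham of 0.22 for TBI, 1.02 for imipramine, 0.89 for Prozac and 0.32 for Zoloft (all SE 0.42), and none passed (limma adjusted p = 0.76, 0.098, 0.18 and 0.71). Between drug-treated and TBI rats the brighter probe differed by -0.16 to 0.26, and the dimmer probe by 0.80 after imipramine, 0.66 after Prozac and 0.10 after Zoloft, and neither probe passed in the tested comparisons.

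Cell type markers moved beside Rbpj. The summed level of 5 microglial markers, on the linear scale of the 75th percentile, was 2.73 to 3.82 in Sham and 4.57 to 5.35 in TBI, all 5 above background on every array. Aif1, whose probe gave the highest signal of the 5, weighs most in that sum. Of the microglial genes only Itgam passed (1.05, SE 0.28, limma adjusted p = 0.025), while Aif1 (0.70), Csf1r (0.63), Cx3cr1 (0.20) and P2ry12 (-0.12) did not. The astrocyte list did not move as one: Gfap was higher in TBI than in Sham by 1.88 (SE 0.45, limma adjusted p = 0.014), while Aldh1l1 (-0.68), Gja1 (-0.63), Slc1a3 (-0.24), Aqp4 (-0.07) and Slc1a2 (0.19) did not pass, and the summed level of the 6 measured astrocyte markers was 24.3 to 28.1 in Sham and 20.3 to 32.6 in TBI. Nes, an intermediate filament of progenitors and reactive glia, was higher by 2.74 (SE 0.23, limma adjusted p = 4.2e-05). Their part in the Rbpj difference was not tested.

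Hes1, the gene that chose the set, was a dim probe. It measured -6.55 and -5.92 in Sham, -6.64, -8.40 and -8.42 in TBI, and -5.29, -5.06 and -5.27 after Zoloft. The 3 TBI+Zoloft arrays lay above all the other arrays, and TBI+Zoloft was the only group with every array above background. The fitted difference between TBI+Zoloft and TBI was 2.61 (SE 0.43), which is a description and not a test. No TBI array was above background. With each TBI array set at the higher of its own Hes1 signal and its lowest signal above background, the level after Zoloft was 2.04-fold that after TBI. This is not a strict lower limit, because some probes were dim at higher signals, such as Hey1 at -5.45 on TBI replicate 1. After imipramine Hes1 measured -6.37, -6.12 and -5.55, with replicates 2 and 3 above background. It differed from TBI by 1.80 (SE 0.43), or 1.17-fold with the TBI arrays set in that way and the dim imipramine replicate 1 left as measured. After Prozac it measured -7.80, -8.10 and -8.79, near the TBI arrays. No Prozac array was above background.

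No test is given for Hes1 in any comparison, because its probe passed the filter on dim signals through the Zoloft arrays alone. Against Sham the fitted differences were 0.22 (SE 0.48) for imipramine and -1.99 (SE 0.48) for Prozac, the latter between 2 groups with no array above background, so that no fold is given. With normexp, an alternative that changed the background model, used the median spot signal and added an offset of 50 to signals as dim as these, TBI+Zoloft exceeded TBI by 0.76 and TBI+Imipramine exceeded TBI by 0.32. Which of these changes moved the values was not tested. With slide as a block the difference of TBI+Zoloft from TBI was 3.26 and that of TBI+Imipramine 2.45, and without TBI replicate 1 the latter was 2.40. The block rests on Prozac replicate 1 against Prozac replicates 2 and 3, all dim for Hes1, so that it cannot separate slide from drug. Choroid plexus tissue was present in unequal amounts. Ttr, its most abundant transcript, measured -0.68, 0.90 and 4.83 on the 3 TBI arrays and 6.11, 6.65 and 0.78 on the 3 TBI+Zoloft arrays. The sum of 8 choroid plexus markers ranged from 0.219 to 106 over all arrays. The part of choroid plexus tissue in the Hes1 difference was not tested. The sum of 4 neural progenitor markers was 2.15 to 2.55 in TBI and 1.46 to 1.79 after Zoloft, and its part in the Hes1 difference was not tested.

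Hes5, a Hes gene widely read as a marker of Notch activity in neural stem cells, lay lower on every injured array than in Sham. It measured -4.36 and -4.32 in Sham, -6.07, -6.08 and -4.85 in TBI, -7.00, -6.67 and -5.78 after imipramine, -5.84, -5.21 and -5.60 after Prozac, and -5.61, -6.53 and -8.37 after Zoloft. No injured array reached either Sham array. Hes5 was above background on both Sham arrays, on all 3 Prozac arrays, on 1 TBI and 1 imipramine array, and on no Zoloft array. Against Sham it was lower after imipramine, with a log2 difference of -2.14 (SE 0.65, limma adjusted p = 0.032). After Zoloft the difference from Sham was -2.50 (SE 0.65, limma adjusted p = 0.043), or 3.26-fold with the dim Zoloft arrays set as the TBI arrays were for Hes1. The differences from Sham of -1.33 for TBI and -1.21 for Prozac (both SE 0.65) did not pass (limma adjusted p = 0.18 and 0.23). Against TBI, imipramine differed by -0.81 (limma adjusted p = 0.45) and Prozac by 0.12 (limma adjusted p = 0.97). Zoloft differed from TBI by -1.17, given without a test. The arrays of each drug overlapped with those of TBI. Whether the drugs differed from each other was tested directly and not shown (limma F test, adjusted p = 0.34). The call after imipramine was lost without either Sham array or without imipramine replicate 1 or 2 (limma adjusted p between 0.091 and 0.13). The call after Zoloft was lost without either Sham array or Zoloft replicate 2 or 3 (between 0.059 and 0.18). With normexp all 4 injured groups passed, at differences of -0.75 (TBI), -1.06 (imipramine), -0.75 (Prozac) and -0.75 (Zoloft). Prozac also passed against Sham with only the groups compared (-1.21, limma adjusted p = 0.028). The size after Zoloft rested on replicate 3: without it the difference from Sham was -1.73, and without replicate 1 it was -3.11. Other markers moved beside Hes5. After Zoloft the neuronal gene Neurod6 was lower than in Sham by a difference of -0.65 (SE 0.13, limma adjusted p = 0.012), and after imipramine it was not (-0.13, limma adjusted p = 0.49). The other tested neuronal markers did not pass after Zoloft (Snap25 -0.14, Syt1 -0.41 and Gad1 0.07). Itgam was higher after imipramine (1.72, limma adjusted p = 0.0016) and after Zoloft (1.23, limma adjusted p = 0.026). The other microglial markers did not pass after Zoloft (Aif1 0.55, Cx3cr1 0.08, Csf1r 0.03 and P2ry12 -0.77). After imipramine Aif1 (0.90), Cx3cr1 (0.69) and Csf1r (0.82) passed as well, and P2ry12 (-0.30) did not. Gfap was higher after imipramine (2.02, limma adjusted p = 0.0074) and did not pass after Zoloft (1.41, limma adjusted p = 0.085). The other measured astrocyte markers passed after neither drug, with Aldh1l1 at -0.62 and -0.74. Of the progenitor markers, Nes (2.85, limma adjusted p = 2.4e-05) and Mki67 (3.74, limma adjusted p = 0.0031) were higher after imipramine. After Zoloft Nes passed (2.36, limma adjusted p = 0.00019) and Mki67 (2.01) did not. Sox2 passed after neither drug (0.38 and -0.38). Of the vessel cell markers, only Cldn5 (0.82) and Kcnj8 (0.81) passed after imipramine, and only Pecam1 (1.27) after Zoloft. The part of all these markers in the Hes5 differences was not tested.

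Hey1, a Hes-related repressor with roles in vessels and brain, was the one tested gene of the set that differed among the 3 drugs. It measured -5.29, -4.83 and -5.22 after imipramine, -5.02, -5.00 and -5.00 after Prozac and -5.55, -5.66 and -5.99 after Zoloft. All Zoloft arrays lay below all other drug arrays, 2 of them not above background (limma F test, adjusted p = 0.038). The mean after Zoloft was lower by 0.72 than after Prozac and by 0.62 than after imipramine on the log2 scale. The call was lost without imipramine replicate 1 or 2, any Prozac array, or Zoloft replicate 2 or 3. Against Sham (-5.28 and -5.31) Hey1 passed in no group in this fit, but it passed after Zoloft with quantile normalization (-0.53, limma adjusted p = 0.049).

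**Figure D2:**
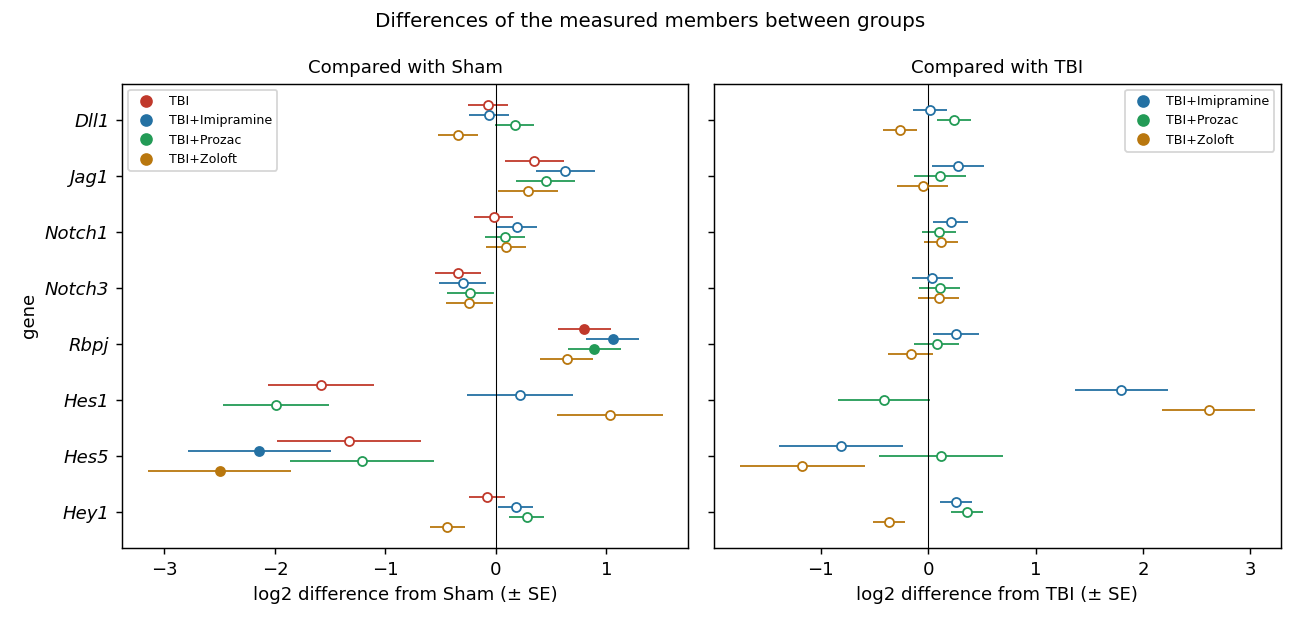
Log2 difference (x axis, with SE) of the 8 genes measured above background, for each injured group against Sham on the left and each drug against TBI on the right. Filled points passed an adjusted p of 0.05; open points did not pass or, for Hes1 and for all genes in TBI+Zoloft against TBI, are shown without a test. The filled points are Rbpj in 3 groups and Hes5 in 2, all against Sham.

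Counted over the set, 8 of 9 genes passed the filter on dim probes, Hes1 through the Zoloft arrays alone, which is the group where it is high. Against Sham, 1 of 7 tested genes passed after TBI, where 16.6% of all probes did, 2 of 7 after imipramine (all probes 23.4%), 1 of 7 after Prozac (14.9%) and 1 of 7 after Zoloft (5.95%). Hes1 is left out of these counts. Against TBI, 0 of 7 passed after imipramine (2.85% of all probes) and 0 of 7 after Prozac (0.00577%), with 0 and 1 at an unadjusted p under 0.05 in limma. Of all 17322 probes, 3417 and 1742 were under that unadjusted limit. Among the drugs 1 gene passed, against 3.18% of all probes. Over all probes the median difference was 0.199 for imipramine against TBI, 0.146 for Prozac against TBI, 0.183 for imipramine against Sham and 0.143 for Prozac against Sham, a shift that small positive differences in these groups include. Relative to that shift Rbpj differed from Sham by 0.88 after imipramine and 0.74 after Prozac, and Hes5 by -2.32 after imipramine.

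Of 49 other Notch pathway genes, 39 had a probe and 31 were measured above background. Between TBI and Sham, 1 was higher and 3 were lower, which is 12.9% of the 31, beside 16.6% of all probes. Adam17, a protease that can cut Notch receptors, was higher by 0.94 (SE 0.19, limma adjusted p = 0.0062), and also after imipramine by 1.21 (limma adjusted p = 0.0012) and after Prozac by 1.04 (limma adjusted p = 0.0053). After Zoloft Adam17 differed from Sham by 0.57 (limma adjusted p = 0.099), and 0 of the 31 genes passed in that comparison in limma, with 4 at an unadjusted p under 0.05. There 5.95% of all probes passed, and 3869 of 17322 had an unadjusted p under 0.05. Hes7, a Hes gene of the segmentation clock, was lower by 1.02 (difference -1.02, SE 0.24, limma adjusted p = 0.015), Neurl1, a ubiquitin ligase of Notch ligands, by 0.87 (difference -0.87, SE 0.25, limma adjusted p = 0.036) and Tle2, a Groucho-type co-repressor that Hes proteins recruit, by 0.65 (difference -0.65, SE 0.21, limma adjusted p = 0.0497). Tle2 was also lower after imipramine (-0.72, limma adjusted p = 0.027). Against Sham, 2 of the 31 passed after imipramine (6.45%, all probes 23.4%) and 1 after Prozac (3.23%, all probes 14.9%). Between TBI and Sham the median difference of the 31 genes was -0.03, beside 0.0015 over all probes. The count for TBI fell to 2 without Sham replicate 1, Sham replicate 2 or TBI replicate 1. In limma 0 of the 31 passed for imipramine or Prozac against TBI, with 1 and 2 at an unadjusted p under 0.05. Of all 17322 probes, 3417 and 1742 were under that unadjusted limit. Of 9 measured helix-loop-helix genes outside the pathway, 1 passed after imipramine against Sham (11.1%, beside 23.4% of all probes). It was Id1, an inhibitor of DNA binding by such proteins, which was higher (0.84, SE 0.19, limma adjusted p = 0.009).

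**Figure D3:**
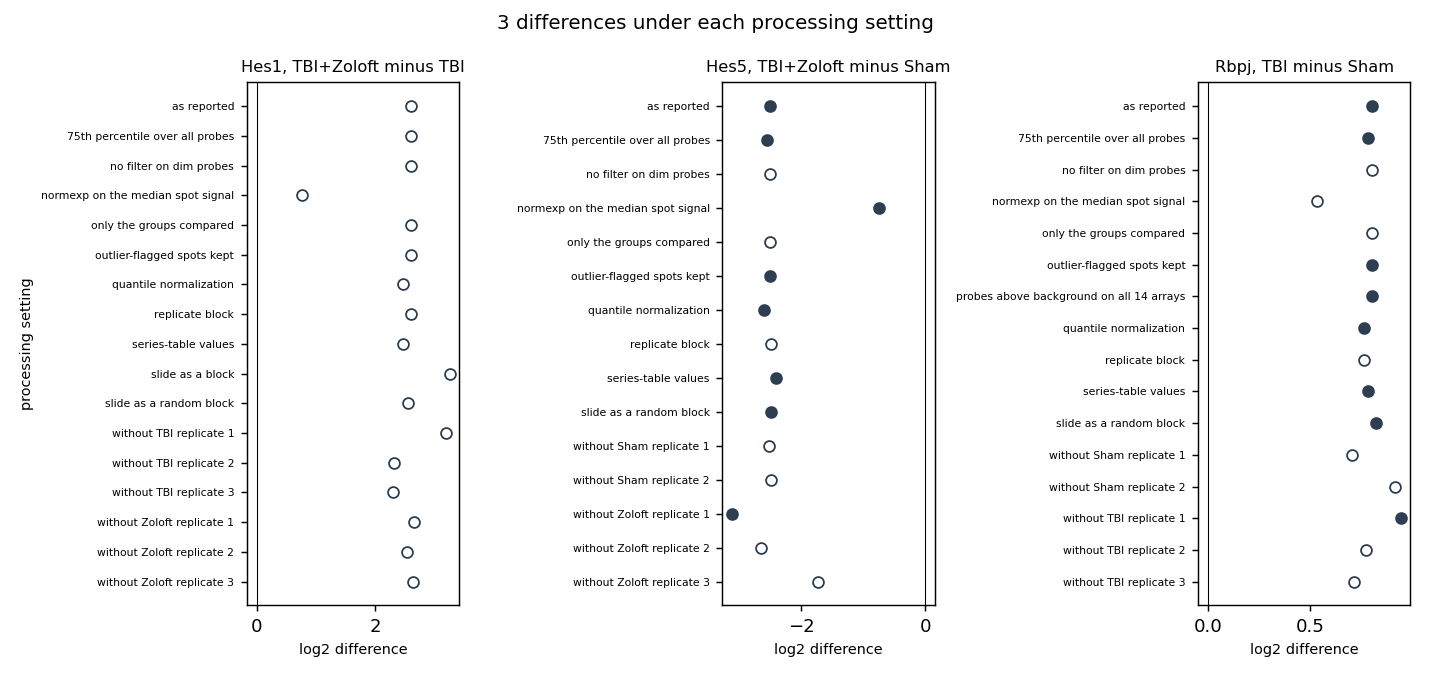
Log2 difference (x axis) of Hes1 (TBI+Zoloft minus TBI), Hes5 (TBI+Zoloft minus Sham) and Rbpj (TBI minus Sham) under each processing setting and with each array left out (y axis). Filled points passed an adjusted p of 0.05 in limma, open points did not, and Hes1 was not tested; all points of a panel lie on one side of 0, and normexp gives the smallest difference in each.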

How the data were processed

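Whole hippocampus RNA of 14 rats was read on single-colour Agilent arrays. The authors scanned the slides and extracted spots with Agilent Feature Extraction 11.5.1.1, and the deposited files hold background-corrected spot intensity on a linear scale with 0 or 1 flags of other kinds (above background, outlier), per the file headers. Outlier-flagged and control spots were left out, the spots of a probe averaged, the signals scaled to each array's 75th percentile of detected probes, and log2 taken. A probe was kept where some group had it above background in all its rats (17322 of 30367). The deposited series table, also intensity from the authors, served as an alternative. Group means were fitted in 1 limma 3.58.1 model (R 4.3.3) over 14 arrays, two-sided, and drugs compared by its F test; the code was tested on simulated data. No counting depth exists for arrays, and their number limits precision. Where a gene had several probes, the brightest stands for it. Hes1, planned for the counts against Sham after imipramine and Prozac, was left out of them after its levels were seen.

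The genes and lists were chosen with earlier results of these data known. Text names all 9 genes, other listed genes that passed at least 1 comparison, and the 5 genes most like Hes1. Probes were named by accession in the RefSeq table of GRCr8 (18643 of 30367). Alternatives were other scalings and filters, quantile normalization, normexp (on the median signal, because no mean signal was given, chosen after seeing the data), slide and replicate blocks, the methods' t-test and leaving out each array. The miRNA arrays were not used here.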

Additional observations from a re-analysis of the deposited data

Results flagged for a closer look

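Hey1 differed among the 3 drugs by limma's F test (adjusted p = 0.038), with lower levels on all 3 Zoloft arrays than on the imipramine and Prozac arrays. The call was lost under 9 other processing settings and in most fits with 1 array left out. In 1 of those settings, probes above background on all arrays, Hey1 was left out as dim and could not pass. It was singled out because the same treatment design gave unequal levels in groups given different drugs.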

How the results depend on the processing

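The results with a call kept their direction under every alternative run, but none of the calls in the set passed under all of them. The Hes1 difference between TBI+Zoloft and TBI (2.61) was 0.76 with normexp, 3.26 with slide as a block, and 2.31 to 3.20 with 1 array left out. That block rests on the Prozac arrays alone. Slide as a block could not be fitted for comparisons with Sham, whose arrays were alone on their slide. For TBI, imipramine and Zoloft against Sham, 1, 2 and 1 genes of the set passed. These numbers were 0, 1 and 0 with no filter on dim probes, and 0, 1 and 0 with the replicate block. Hes1 could enter the refitted Prozac counts, so Prozac is given by gene. Its 1 call without Hes1, Rbpj, was lost with no filter (limma adjusted p = 0.068) and with the replicate block (limma adjusted p = 0.063). With probes above background on all 14 arrays imipramine, Prozac and Zoloft gave 1, 1 and 0. Hes5 and Hey1 were dim on some arrays, so that filter left them out and they could not pass there. With only the groups compared TBI and Zoloft gave 0 and 0, and quantile normalization gave 2 for Zoloft. The methods' t-test after Benjamini-Hochberg gave 0 in all 4 comparisons with Sham. Unadjusted with a fold over 1.2, that test gave 0 for Zoloft against Sham and 1 for Prozac against TBI. In limma, with no fold limit, 3869 and 1742 of all 17322 probes had an unadjusted p under 0.05 there. The t-test count for Prozac against Sham is not given, because Hes1 could enter it. With 1 array left out the counts ranged from 0 to 1 for TBI, 0 to 2 for imipramine and 0 to 1 for Zoloft. The count among the drugs (1) was 0 with the percentile over all probes, no filter, normexp, only the groups compared, probes on all 14 arrays (which left Hey1 out), quantile normalization, the replicate block, series-table values and slide as a block, and 0 to 1 with 1 array left out. The count of other pathway genes for TBI against Sham (4) was 2 with no filter, 1 with only the groups compared, and 2 to 4 with 1 array left out.

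The replicate block moved Rbpj in TBI against Sham to 0.76 (limma adjusted p = 0.081), Rbpj after Prozac to 0.84 (0.063), and Hes5 after imipramine and Zoloft to -2.13 (0.062) and -2.49 (0.088). Same-numbered arrays deviated together no more than others (median r 0.00472, range -0.23 to 0.23), so the numbers do not pair the rats.

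The refits covered 44 differences of the set, among them Hes1 for imipramine and Prozac against Sham. Hes1 stayed in the counts that follow, though its probe was kept through the Zoloft arrays alone. They give no test of Hes1. Of the 44 differences, 32 passed under no setting, and 69 of their 497 refits changed sign, at limma adjusted p of 0.19 or more. With the percentile over all probes, Dll1 became -0.20 (imipramine against TBI) and -0.02 (Prozac against Sham), Hes1 -0.03 (imipramine against Sham), Hes5 -0.05 (Prozac against TBI), Hey1 -0.07 (imipramine against Sham), Jag1 -0.06 (Prozac against TBI), Notch1 -0.06 and -0.11 (imipramine and Prozac against Sham) and -0.01 and -0.06 (against TBI), Notch3 -0.18 and -0.06 (against TBI) and Rbpj -0.08 (Prozac against TBI). In the same order, series-table values gave -0.20, -0.03, -0.14, -0.06, -0.07, -0.06, -0.06, -0.12, -0.01, -0.07, -0.18, -0.07 and -0.09. Quantile normalization gave Dll1 -0.29 and -0.06, Hes1 -0.07, Hes5 -0.09, Hey1 -0.15 and, for imipramine against TBI, -0.04, Jag1 -0.09, Notch1 -0.02 and -0.07 against Sham and -0.04 (Prozac against TBI), Notch3 -0.27 and -0.10, and Rbpj -0.10. Normexp gave Dll1 -0.03 and -0.10, Hes1 -0.27, and Hey1 -0.27 and -0.25 (imipramine and Prozac against Sham). Slide as a block gave Hes5 -0.17 and Jag1 -0.08 (Prozac against TBI). With 1 array left out, Dll1 ranged from -0.34 to 0.19 (TBI against Sham), -0.32 to 0.21 (imipramine against Sham), -0.05 to 0.16 (imipramine against TBI) and -0.09 to 0.43 (Prozac against Sham), Hes1 from -0.09 to 0.54 (imipramine against Sham), Notch1 from -0.14 to 0.09, -0.04 to 0.21 and -0.02 to 0.24 (TBI, Prozac and Zoloft against Sham), and Notch3 from -0.16 to 0.27 (imipramine against TBI). For Prozac against TBI, Hes5 ranged from -0.09 to 0.52, Jag1 from -0.06 to 0.32, Notch3 from -0.10 to 0.34 and Rbpj from -0.05 to 0.24. Dim signals limit Hes1, Hes5 and Hey1, which were below background on 9, 7 and 3 arrays.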

Other observations

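The 5 genes whose levels followed Hes1 most closely over the 14 arrays, among 10203 genes compared, were Sfrp1 (Pearson r 0.77, Spearman rho 0.79), Hps1 (0.77 and 0.74), Cdh23 (0.74 and 0.67), Wdr62 (0.73 and 0.67) and Sgk1 (0.73 and 0.72). The arrays share groups and slides, and Hes1 was not above background on 9 of them, so these values are a description only. Sfrp1 encodes a secreted inhibitor of Wnt signalling and Sgk1 a kinase induced by glucocorticoids. Cdh23, a cadherin, had a group mean of -6.37 in TBI and -3.84 after Zoloft, Sgk1 of 0.37 and 1.21, and Sfrp1 of -6.14 and -5.37. Hps1 (-4.06 and -3.57) and Wdr62 (-3.72 and -3.37) were highest after imipramine (-3.40 and -3.30). Hes1 was chosen for its higher level after Zoloft, so higher means there in genes that follow it are no separate result.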
